A study of Mus musculus with 6 samples.

Results

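The serotonin 2C receptor and the Gq-IP3 route that it drives were followed in translating mRNA of mouse choroid plexus (ChP) from embryo to adult. The group held the 9 genes Htr2c, Gnaq, Gna11, Plcb1, Plcb3, Plcb4, Itpr1, Itpr2 and Itpr3, taken by symbol from a table of 24354 gene names. All 9 were found, and 7 of them had a mean above 1 FPKM over the 6 samples and entered the test, which covered 11601 genes. FPKM is the number of fragments per kilobase of transcript and normalised to the mapped fragments of the sample, so levels of different genes can be set side by side. The 3 adult samples (P60, labelled 60 days) and the 3 E16.5 samples carried FoxJ1:cre and the bacTRAP allele EGFP:L10a alike, and no group lacked either allele or received a treatment. Translating ribosome affinity purification (TRAP) pulls down the EGFP-tagged ribosomes with their mRNA, so that only cells with a history of Foxj1 Cre activity contribute tagged ribosomes. Foxj1 is also expressed by other ciliated cells, ependyma among them. The study's methods describe adults of 8 weeks and samples of lateral ventricle ChP pooled from 3 mice or 3 litters, whereas the series design speaks of 3 mice per age. The methods state that males and females were both used across the study, but not how many of each went into a TRAP sample. If the samples did not come from separate pools, p-values measure only a technical spread.

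HTR2C is a G protein-coupled receptor for serotonin that has long been known for its abundance in choroid plexus epithelium. When serotonin binds, the alpha subunits Gq (Gnaq) and G11 (Gna11) take up GTP and switch on phospholipase C beta, which splits the membrane lipid PIP2 into diacylglycerol and inositol trisphosphate (IP3). IP3 opens IP3 receptors, calcium channels of the endoplasmic reticulum, and calcium enters the cytosol, while diacylglycerol stays in the membrane and activates protein kinase C.

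The adult libraries were the shallower ones. Judged by how much FPKM 1 read is worth in lowly expressed genes, adult replicate 3 was the shallowest, adult replicate 1 had 1.27 times and adult replicate 2 had 2.90 times its depth, and the E16.5 samples had 4.17 to 5.25 times. Adult replicate 3 had 36.4% of the tested genes listed at 0. Mir6236, annotated as a microRNA gene, took 32.7% to 51.7% of the summed FPKM in adults and 13.3% to 15.0% at E16.5. FPKM divides by length, so for so short a gene this is not its share of the reads. What RNA these reads came from was not tested. The median log2 change of all genes tested was -0.86 (adult minus E16.5, as for every change given here). Markers of ChP epithelium summed to between 40979 and 56361 FPKM in adults and between 5909 and 6622 FPKM at E16.5, with Ttr, the abundant thyroxine carrier of this epithelium, listed at 0 in all 3 E16.5 samples. Without the 2 most abundant of them, Ttr and Enpp2, the other 13 summed to 5034 to 6328 FPKM in adults and to 5635 to 6380 FPKM at E16.5, and of all 15 limma called 6 higher in adults and 3 higher at E16.5. Markers of motile cilia went the other way, from 206 to 439 FPKM in adults and from 1231 to 1429 FPKM at E16.5. The part of these differences in the results below was not tested. A value of 0 in the table may also be an estimate that failed. In such bulk samples fewer cells of a type and less mRNA per cell cannot be told apart.

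Translating Itpr1 mRNA averaged 201 FPKM in adult and 72.8 FPKM in E16.5 ChP, and Itpr1 was the only member called between the ages. Limma called 1 member higher in adult, where 2.12% of all genes tested were called in that direction, and 0 members higher at E16.5, where the background was 8.83%. Htr2c was higher in each adult sample than in any E16.5 sample but missed the threshold. The Gq subunits overlapped between the ages, and Plcb3 and Plcb4 parted in opposite directions without passing the test. Plcb1, Itpr2 and Itpr3 were near the floor of the table.

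**Figure D1:**
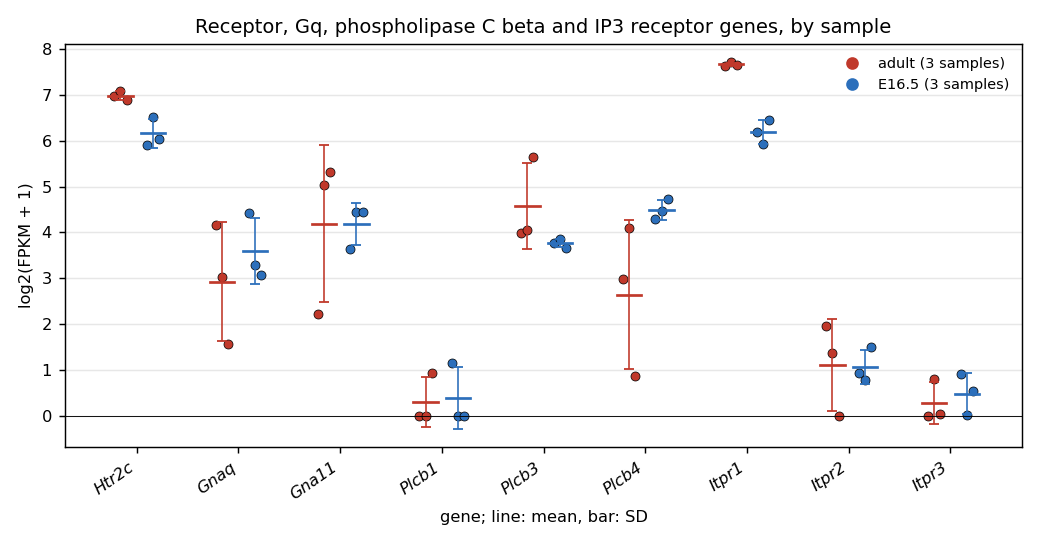
Levels of the 9 genes as log2(FPKM + 1) in each of the 3 adult (red) and 3 E16.5 (blue) samples, with the mean (line) and SD (bar) of an age. Itpr1 and Htr2c lie highest, and their adult samples lie above their E16.5 samples. The adult points of Gnaq, Gna11 and Plcb4 are spread widely, and Plcb1, Itpr2 and Itpr3 lie near 0.

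Htr2c lies on the plus strand of chromosome X (146962513 to 147197277, GRCm38, the build also called mm10). No 50-base stretch of its longest coding transcript is shared with another gene, so its reads can be placed. Its pre-mRNA is known for adenosine-to-inosine editing in the second intracellular loop of the receptor, which weakens the coupling to Gq. The edited stretch is shown because one gene-level FPKM holds all edited forms together. It lies in a coding exon, chrX:147169671-147169715 on the plus strand, which is exon 5 of 6 in one coding transcript and exon 6 of 7 in another of the GENCODE annotation. The 5 edited adenosines are in capitals.
Htr2c editing window: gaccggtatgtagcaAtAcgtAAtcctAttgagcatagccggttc

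Htr2c was measured at 125, 133 and 117 FPKM in adult replicates 1, 2 and 3. At E16.5 it stood at 59.4, 91.0 and 65.0 FPKM. The lowest adult sample was above the highest E16.5 sample, E16.5 replicate 2. The means were 125 ± 7.98 FPKM in adults and 71.8 ± 16.9 FPKM at E16.5 (SD, n = 3 each), a log2 change of 0.82 with a standard error of 0.28 and a 95% interval of 0.16 to 1.47. The limma p adjusted over all genes was 0.0995, so the difference did not pass. The exact two-sided permutation test gave 0.1, the smallest value that 3 samples against 3 allow.

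The place of Htr2c among all genes of its own sample does not hang on how the samples are scaled. Ordered by FPKM, it was gene 280, 357 and 407 from the top in the adult samples. It was gene 1343, 821 and 1156 in the E16.5 samples. Every adult sample thus ranked Htr2c higher than every E16.5 sample did. A rank also moves with the levels of the other genes, and how many genes ranked higher in every adult sample was not counted. Of the tested genes, 10.3% to 36.4% were listed at 0 in adults, against 3.68% to 4.02% at E16.5. Between 1669 and 5506 reads were estimated behind the adult values of Htr2c and between 3519 and 6787 behind those at E16.5. On this rough estimate, counting error was small beside the spread between samples.

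The call for Htr2c depended on the scaling of the samples. With median-ratio size factors the log2 change was 1.16, and with quantile normalization it was 1.29, with limma adjusted p of 0.0403 and 0.0336. With all samples brought to the same FPKM sum, in which Mir6236 takes part, the change was -0.0028 with an adjusted p of 0.995. With Mir6236 left out of that sum it was 0.66 with an adjusted p of 0.170. Set against the median of all genes in the same fit, Htr2c lay 1.67 log2 units higher as deposited and 1.38 to 1.72 higher under the 4 other scalings. Leaving out single samples gave changes of at least 0.70, with no call.

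**Figure D2:**
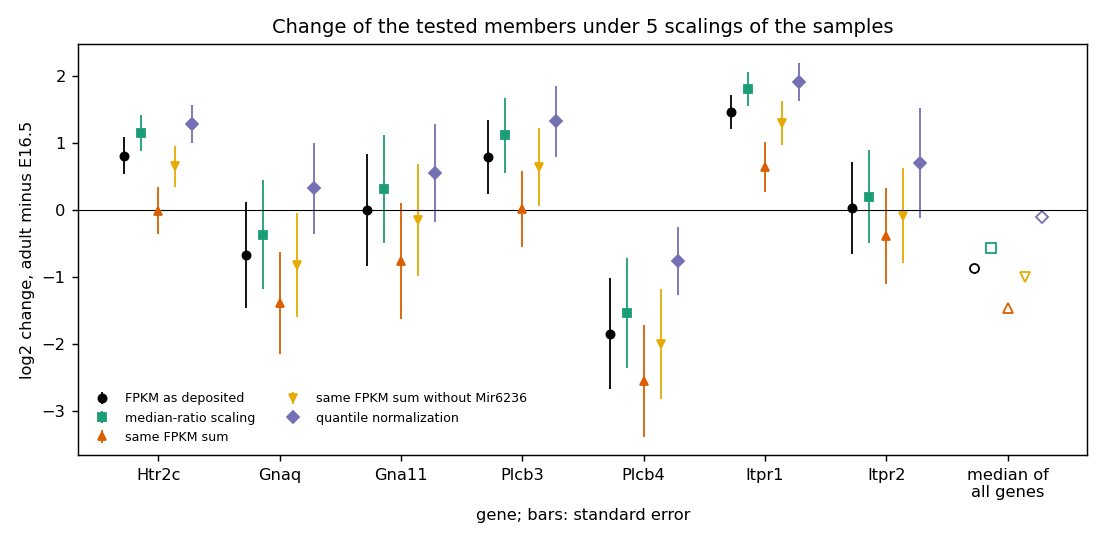
Log2 change (adult minus E16.5) with standard error of the 7 tested members with FPKM as deposited and under 4 other scalings, with the median of all genes under each (open symbols, far right). Htr2c runs from -0.0028 with the same FPKM sum to 1.29 with quantile normalization, and Itpr1 from 0.65 to 1.92, while the median of all genes runs from -1.46 to -0.09.

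The 250 bases before the annotated start of Htr2c, chrX:146962263-146962512 on the plus strand (RefSeq, GRCm38.p6), are printed because Htr2c is the receptor of the route and held fewer CpG than most of the other members. Capitals mark a CCAAT box read on the minus strand, 80 bases before the start.
Htr2c upstream: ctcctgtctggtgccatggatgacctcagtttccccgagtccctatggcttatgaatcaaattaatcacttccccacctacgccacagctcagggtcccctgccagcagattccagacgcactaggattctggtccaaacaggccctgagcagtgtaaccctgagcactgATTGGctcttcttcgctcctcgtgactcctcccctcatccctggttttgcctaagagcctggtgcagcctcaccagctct

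RefSeq windows of the 250 bases before the start were taken for 8 members, with 2 windows for Plcb4. Itpr1 had no entry. The Htr2c window held 5 CpG, and 49.6% of 32851 promoters held as few or fewer. The second Plcb4 window held 3, and the other 7 windows held between 20 and 42. Both strands were searched for 4 motifs. GGGCGG, the GC box, was in 7 of the 9 windows but not in that of Htr2c nor in the second of Plcb4, and 32.7% of all promoters held it. CCAAT was in the windows of Htr2c and Itpr2, against 33.8% of all promoters. TATAAA (12.4% of promoters) and TAATCC, the core bound by OTX2-like homeodomains (6.3%), were in 0 of the 9. A match is only a run of letters in this window.

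The alpha subunits that couple the receptor varied more between samples of one age than between the ages. Gnaq (chromosome 19, 16132831 to 16387463, plus strand) was at 17.0, 7.18 and 1.98 FPKM in the adult replicates. The E16.5 replicates held 20.3, 8.86 and 7.37 FPKM of it. The ages overlapped, and the log2 change of -0.67 (SE 0.79) had a limma adjusted p of 0.581. Gna11 (chromosome 10, 81528724 to 81545190, minus strand) was at 3.67, 31.8 and 38.7 FPKM in adults. It was at 11.5, 20.8 and 21.0 FPKM at E16.5. Here too the ages overlapped, with a log2 change of 0.01 (SE 0.84, 95% interval -1.94 to 1.95) and an adjusted p of 0.996, an interval too wide to call the ages alike.

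Gnaq and Gna11 stood in a different balance from sample to sample. Gnaq made up 82.2%, 18.4% and 4.87% of the summed FPKM of the pair in adult replicates 1, 2 and 3. At E16.5 its share was 63.9%, 29.9% and 26.0%. In both ages the sample called replicate 1 had the largest Gnaq share, although the numbers do not pair samples. The sum of the pair was 33.5 ± 11.1 FPKM in adults and 30.0 ± 1.77 FPKM at E16.5 (SD, n = 3 each). The share of Gnaq did not differ between the ages beyond this spread (exact permutation p = 0.8, Benjamini-Hochberg adjusted p = 0.880 over the 11 shares and ratios compared). The longest identical run between the Gnaq and Gna11 transcripts is 38 bases, shorter than the 50-base reads, so a read that lies whole in one can be told from the other.

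Among the phospholipases, Plcb3 and Plcb4 leaned in opposite directions, and neither passed the test. Plcb3 (chromosome 19, 6952325 to 6976470, minus strand) was measured at 14.9, 15.7 and 49.1 FPKM in the adult replicates. Its E16.5 values were 12.7, 13.5 and 11.7 FPKM. The adult samples were all above the E16.5 samples, and adult replicate 3 alone stood far above the rest. The log2 change was 0.80 (SE 0.55), with a limma adjusted p of 0.350, and without adult replicate 3 it was 0.26 with an adjusted p of 0.663. Ppp1r14b overlaps Plcb3 on the other strand, and the sources used here do not say whether the strand was used in counting.

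Plcb4 (chromosome 2, 135659011 to 136014593, plus strand) was at 6.87, 16.0 and 0.842 FPKM in adults. At E16.5 it was at 18.6, 21.0 and 25.3 FPKM. All adult samples were below all E16.5 samples. The log2 change was -1.84 (SE 0.82, 95% interval -3.76 to 0.08), with a limma adjusted p of 0.173, and without adult replicate 3 it was -0.96 with an adjusted p of 0.364. About 13 reads were estimated behind the lowest value, that of adult replicate 3. Plcb1 (chromosome 2, 134786067 to 135475258, plus strand) was listed at 0, 0 and 0.912 FPKM in adults and at 1.24, 0.0093 and 0 FPKM at E16.5, and fell under the filter. E16.5 replicate 1, with 1.24 FPKM of Plcb1, also held the most of the neuronal genes Tubb3 (36.2 FPKM), Stmn2 (25.3 FPKM) and Dcx (8.32 FPKM). Adult replicate 3, with 0.912 FPKM, held the most of the myelin gene Mbp (58.7 FPKM). What these cells add to Plcb1 was not tested.

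Within a sample, Plcb3 made up 68.5%, 49.5% and 96.6% of the summed FPKM of the 3 phospholipase genes in adults. At E16.5 it made up 39.1%, 39.0% and 31.6%. Plcb4 made up 31.5%, 50.5% and 1.66% in adults and 57.1%, 60.9% and 68.4% at E16.5. Neither share overlapped between the ages. A factor applied to a whole sample cancels in these shares, while quantile normalization would not, and they were not recomputed under it. The mean share of Plcb3 was 71.5% ± 23.7 in adults and 36.6% ± 4.28 at E16.5 (SD, n = 3 each), with an exact permutation p of 0.1, the smallest possible, and an adjusted p of 0.275. The sum of the 3 genes was 34.8 ± 14.8 FPKM in adults and 34.7 ± 2.26 FPKM at E16.5, a difference far smaller than the spread. Adult replicate 2 had the smallest Plcb3 share of the adults, at 49.5%, still above the highest E16.5 sample, at 39.1%.

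**Figure D3:**
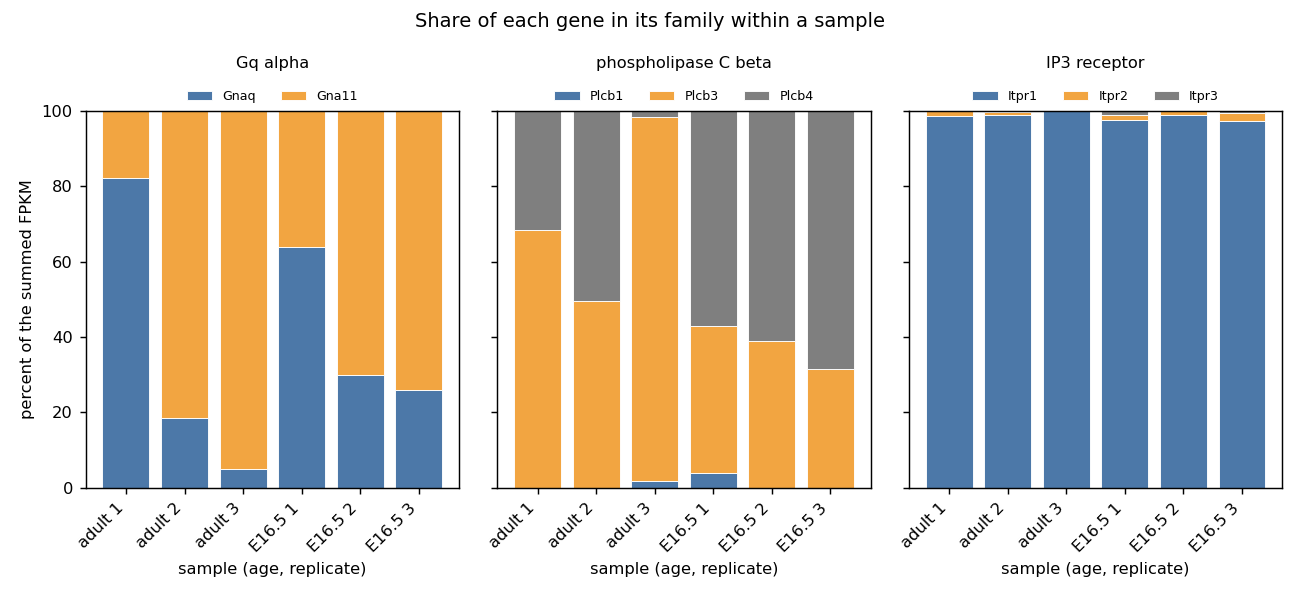
Share of each gene in the summed FPKM of its family, in percent, in each of the 3 adult and 3 E16.5 samples. The Gnaq share varies within both ages, Plcb3 holds 49.5% to 96.6% of the phospholipase C beta FPKM in adults and 31.6% to 39.1% at E16.5, and Itpr1 holds 97.4% or more of the IP3 receptor FPKM in every sample.

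Itpr1, the type 1 IP3 receptor (chromosome 6, 108213096 to 108551109, plus strand), was measured at 197, 208 and 198 FPKM in the adult replicates. It was measured at 71.9, 59.9 and 86.5 FPKM at E16.5. The adult samples lay close together and all above the E16.5 samples. The means were 201 ± 5.83 FPKM and 72.8 ± 13.3 FPKM (SD, n = 3 each), and the log2 change of 1.47 (SE 0.26, 95% interval 0.87 to 2.07) passed with a limma adjusted p of 0.0183. Relative to the median of all genes it lay 2.32 log2 units higher. Itpr1 was gene 142, 198 and 204 from the top in the adult samples and gene 1069, 1349 and 785 in the E16.5 samples. Each adult sample thus ranked it higher. As for Htr2c, such a rank does not hang on scaling but moves with the levels of the other genes.

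The call for Itpr1 was not held under every setting. Limma kept it in 11 of 18 alternatives, and the change was above 0 in all 18. It was lost with the same FPKM sum in all samples (0.65, adjusted p = 0.200). Leaving out E16.5 replicate 1, 2 or 3 gave changes of 1.47, 1.34 and 1.60 with adjusted p of 0.0751, 0.0745 and 0.0557.

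Itpr2 and Itpr3, the other IP3 receptors, were at low levels in all samples. Itpr2 (chromosome 6, 146108299 to 146502223, minus strand) was listed at 2.88, 1.59 and 0 FPKM in adults and at 0.926, 0.718 and 1.82 FPKM at E16.5. Its log2 change was 0.04 (SE 0.69), with a limma adjusted p of 0.976. Itpr3 (chromosome 17, 27057304 to 27122223, plus strand) was listed at 0, 0.757 and 0.0371 FPKM in adults and at 0.879, 0.0144 and 0.463 FPKM at E16.5, under the filter. Of the summed FPKM of the IP3 receptors, Itpr1 thus made up 99.1% ± 0.744 in adults and 97.9% ± 0.756 at E16.5 (SD, n = 3 each), with an exact permutation p of 0.2 and an adjusted p of 0.367. The 3 receptor transcripts share no identical run longer than 32 bases.

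Ordered by FPKM, the adult ChP held Itpr1 first and Htr2c second in each of the 3 samples, and no other member came above 49.1 FPKM there. Plcb3, Gna11, Gnaq and Plcb4 followed, with ranges that overlapped. At E16.5, Itpr1 (59.9 to 86.5 FPKM) and Htr2c (59.4 to 91.0 FPKM) could not be put in order. Below them came Plcb4 (18.6 to 25.3 FPKM) and Gna11, Plcb3 and Gnaq, which overlapped each other. The ratio of Itpr1 to Htr2c was 1.58, 1.56 and 1.69 in adults and 1.21, 0.658 and 1.33 at E16.5, so that Itpr1 stood higher against its receptor in every adult sample. The log2 difference of this ratio was 0.65, with an exact permutation p of 0.1, the smallest possible, and an adjusted p of 0.275. Of the 7 tested members, Htr2c, Plcb3 and Itpr1 had all adult samples above all E16.5 samples, as did 7.39% of all genes tested, and Plcb4 had all below, as did 31.0%.

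Across the 6 samples, the genes whose log2(FPKM + 1) ran most like that of Htr2c were Slc48a1, a heme transporter (Pearson's r 0.998), Cables1 (0.995), Phactr2 (0.994), Ddx3y (0.991) and Mrap2 (0.989). These are the top 5 of 11601 genes over 6 samples of 2 ages, and are given as a description. Phactr2, for example, was at 156, 181 and 144 FPKM in adults and at 73.5, 108 and 81.4 FPKM at E16.5, with E16.5 replicate 2 highest of its age as for Htr2c. Ddx3y is Y-linked. It was at 81.4, 83.7 and 66.2 FPKM in adults and at 0.0539, 13.8 and 0.0611 FPKM at E16.5. Its ages did not overlap, and limma called it higher in adults (log2 change 4.93, adjusted p = 0.0280). Xist, which is transcribed from the inactive X chromosome, was listed at 0 in all adults and at 1.19, 0.0891 and 0.189 FPKM at E16.5. The study pulled ribosomes from a post-nuclear supernatant, so Xist was not read here as a measure of sex. Htr2c is X-linked, both sexes were used in the study, the makeup of each pool is not stated, and its part in the values of Htr2c was not tested.

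The rest of the route was described with 13 lists of genes, of which 223 of 224 names were in the table and 126 were tested. Limma called 7 of the 126 (5.56%) higher in adults and 14 (11.1%) higher at E16.5. The same shares over all genes were 2.12% and 8.83%, and the median log2 change was -0.46 in the lists against -0.86 over all genes. Without E16.5 replicate 1, 2 or 3 only 2 of the genes higher in adults were left each time, Maob and Slc29a4, and 0, 0 and 1 (Marcksl1) of those higher at E16.5. Without adult replicate 1 the counts were 4 and 7, without adult replicate 2 they were 6 and 16, and without adult replicate 3 they were 11 and 16. Scaling moved the split as well, to 10 and 10 with median-ratio scaling, 11 and 7 with quantile normalization, 2 and 28 with the same FPKM sum and 4 and 16 with Mir6236 left out of that sum.

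**Figure D4:**
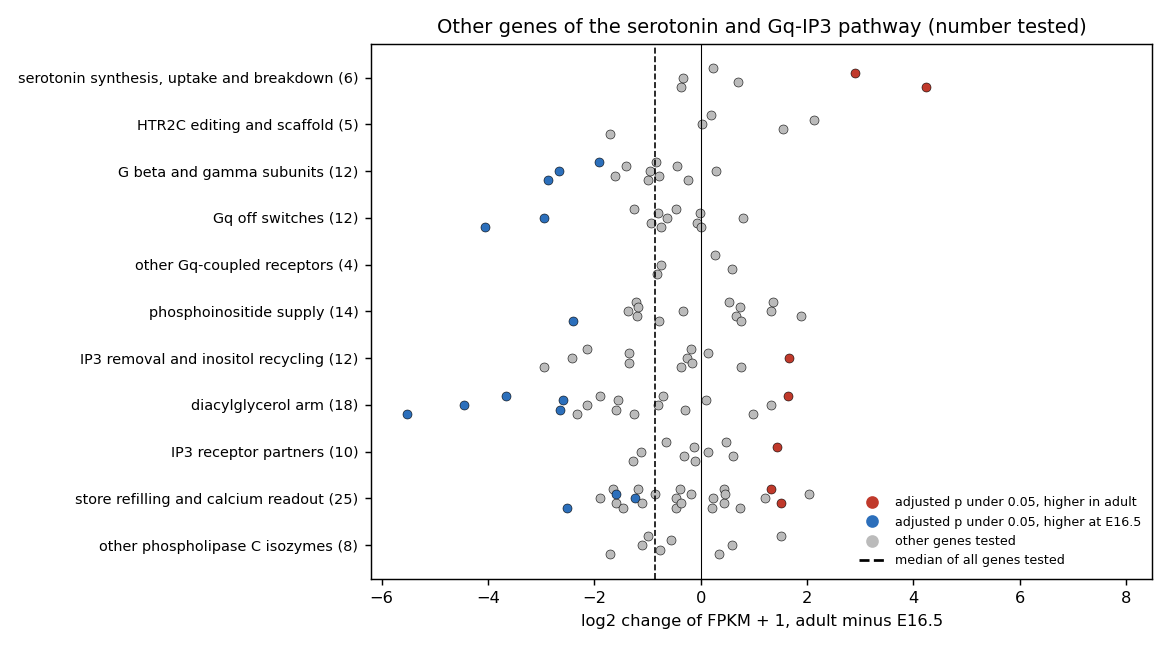
Log2 change (adult minus E16.5) of each tested gene in the 11 lists with tested genes, with called genes in red (7 higher in adult) and blue (14 higher at E16.5) and the median of all genes tested as a dashed line at -0.86. The 2 red points of serotonin synthesis, uptake and breakdown lie farthest right, and 2 blue points of the diacylglycerol arm, Marcksl1 and Marcks, farthest left.

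Upstream of the receptor, 2 of 6 tested genes of serotonin synthesis, uptake and breakdown were higher in adults, against 2.12% of all genes tested. Slc29a4 encodes the plasma membrane monoamine transporter, which takes up serotonin at low affinity. It was at 201, 223 and 272 FPKM in adults and at 31.3, 37.5 and 22.8 FPKM at E16.5, a log2 change of 2.90 (SE 0.30, limma adjusted p = 0.0039). Maob, a mitochondrial monoamine oxidase, was at 122, 139 and 99.1 FPKM in adults and at 4.15, 4.49 and 7.89 FPKM at E16.5, a log2 change of 4.25 (SE 0.39, limma adjusted p = 0.0026). No sample of one age reached the other for either gene, and both were called in all 18 alternatives. Further genes were looked at after their values were seen. Maoa, the other monoamine oxidase, overlapped between the ages (3.39 to 13.0 FPKM in adults, 2.94 to 6.40 FPKM at E16.5, adjusted p = 0.844). Slc6a4, the high-affinity serotonin transporter, was listed at 0 in all samples but E16.5 replicate 1, which held 1.60 FPKM, and Ddc, which makes serotonin from its precursor, was at 0 in all adults and at 0, 2.13 and 0.812 FPKM at E16.5.

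Htr2c was the only serotonin receptor gene past the filter. The 13 other receptor genes were all in the table and 0 of them had a mean above 1 FPKM. Htr1b, at 4.99 FPKM in E16.5 replicate 1, and Htr2a, at 3.69 FPKM in adult replicate 1, were listed at 0 in the remaining samples and are named after their values were seen. Of 37 other Gq-coupled receptors, 4 were tested and 0 were called, against 10.9% of all genes tested in either direction. The highest was Ednrb, an endothelin receptor, with 70.1, 52.8 and 67.8 FPKM in adults and 122, 105 and 111 FPKM at E16.5 (log2 change -0.83, adjusted p = 0.0876).

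Genes for editing and scaffolding of HTR2C were not called, 0 of 5 tested, against 10.9% of all genes tested in either direction. Dlg4, a scaffold protein, was the most abundant and overlapped between the ages (23.5 to 38.3 FPKM in adults, 19.9 to 41.8 FPKM at E16.5). The others are named after their values were seen. Adar, an editing enzyme, was at 3.26, 6.27 and 3.01 FPKM in adults and at 14.8, 14.7 and 16.7 FPKM at E16.5 (log2 change -1.71, limma adjusted p = 0.0800). Adarb1, which also edits, was at 18.2, 24.5 and 43.9 FPKM in adults and at 22.9, 22.5 and 24.6 FPKM at E16.5 (log2 change 0.20, adjusted p = 0.768). Mpdz, a multi-PDZ protein that binds the tail of the receptor, was at 11.9, 18.3 and 14.5 FPKM in adults and at 1.92, 1.97 and 4.40 FPKM at E16.5 (log2 change 2.13, adjusted p = 0.0581). Neither Adar nor Mpdz overlapped between the ages, in opposite directions, and neither passed the threshold. All adult samples were below all E16.5 samples in 31.0% of all genes tested, as for Adar, and above them in 7.39%, as for Mpdz.

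At the G protein, 3 of 12 tested beta and gamma subunits were higher at E16.5 and 0 higher in adults. The shares over all genes tested were 8.83% and 2.12%. Gnb2 was at 69.1, 51.4 and 23.5 FPKM in adults and at 212, 195 and 115 FPKM at E16.5, a log2 change of -1.92 (SE 0.46, limma adjusted p = 0.0400). Gnb4 and Gng11 were listed at 0 in all adults, as were 749 of the 11601 genes tested. They stood at 4.59 to 9.19 and 2.01 to 9.74 FPKM at E16.5. Of 18 alternatives, the call held in 8 for Gnb2, 11 for Gnb4 and 6 for Gng11. Gnb1, the most abundant of the list, was at 112 ± 12.5 FPKM in adults and 194 ± 32.8 FPKM at E16.5 (SD, n = 3 each) and missed the threshold (adjusted p = 0.0897). Of a list of RGS proteins, receptor kinases, arrestins and related genes, 21 of 22 names were in the table and 12 were tested. Whether each of them acts on Gq was not tested. The 2 called were both higher at E16.5. Rgs10 was at 0, 0.504 and 0 FPKM in adults and at 6.29, 28.5 and 31.4 FPKM at E16.5, and Grk4 was listed at 0 in adults and at 2.57 to 11.3 FPKM at E16.5. Of 18 alternatives, the call held in 12 for Rgs10 and 8 for Grk4. Arrb1, an arrestin and the most abundant of these genes, was at 14.9 to 24.9 FPKM in adults and 7.85 to 13.7 FPKM at E16.5 (adjusted p = 0.276). None of the 3 genes that complete the Gq family and phospholipase C beta passed the filter.

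Among 14 tested genes of phosphoinositide supply, 1 was called, higher at E16.5, where 8.83% of all genes tested were called. Pitpnm1, a phosphatidylinositol transfer protein, was at 10.5, 12.8 and 7.17 FPKM in adults and at 57.9, 58.4 and 53.4 FPKM at E16.5, a log2 change of -2.40 (SE 0.38, limma adjusted p = 0.0134). Pip5k1b, which makes PIP2 and was the most abundant, overlapped between the ages (57.2 to 104 FPKM in adults, 36.5 to 62.4 FPKM at E16.5). The 8 tested phospholipase C genes of other classes gave 0 calls, against 10.9% of all genes tested in either direction. Plcl1, a phospholipase-like protein that binds IP3 without cutting lipid, was their most abundant at 48.7 to 51.8 FPKM in adults and 30.8 to 34.9 FPKM at E16.5 (adjusted p = 0.216).

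Around the IP3 receptor, few genes were called. Those called were higher in adults, where 2.12% of all genes tested were called, against 8.83% higher at E16.5. Itpkb, which phosphorylates IP3 and so removes it, was the only one called of 12 tested genes of IP3 removal. It was at 75.2, 59.4 and 130 FPKM in adults and at 27.9, 28.0 and 21.9 FPKM at E16.5, a log2 change of 1.66 (SE 0.38, limma adjusted p = 0.0368). The Itpkb call held in 9 of 18 alternatives. Of these 12 genes, 1 had all adult samples above all E16.5 samples and 4 had all below. The shares over all genes tested were 7.39% and 31.0%. Of 10 tested genes listed as partners of the IP3 receptor, Ahcyl2 alone was called. It was at 389, 463 and 399 FPKM in adults and 139, 171 and 149 FPKM at E16.5 (log2 change 1.44, SE 0.23, limma adjusted p = 0.0130). The Ahcyl2 call held in 12 of 18 alternatives. Ahcyl2 belongs to the family of IRBIT, a protein that binds the IP3 site of the receptor. Whether the Ahcyl2 product binds there was not tested. The ratio of Ahcyl2 to Itpr1 was 1.97, 2.23 and 2.01 in adults and 1.93, 2.85 and 1.72 at E16.5, so the ages overlapped (exact permutation p = 1). Ahcyl1, IRBIT itself, named after its values were seen, was at 156, 114 and 145 FPKM in adults and at 108, 98.8 and 88.6 FPKM at E16.5 (log2 change 0.48, adjusted p = 0.246).

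Of 25 tested genes of store refilling and calcium readout, 2 were higher in adults and 3 at E16.5. Among all genes tested, 2.12% and 8.83% were. Atp2a2, the SERCA pump that refills the store, was at 157, 207 and 104 FPKM in adults and at 62.7, 58.3 and 57.7 FPKM at E16.5 (log2 change 1.32, SE 0.32, limma adjusted p = 0.0423). Canx, a calcium-binding chaperone of the endoplasmic reticulum, was at 323, 379 and 250 FPKM in adults and at 96.3, 101 and 134 FPKM at E16.5 (log2 change 1.51, SE 0.27, adjusted p = 0.0201). Calr, the most abundant gene of the list and a calcium-binding protein of the same store, was at 888 to 1315 FPKM in adults and at 584 to 703 FPKM at E16.5, but missed the threshold (adjusted p = 0.0800). Calm2 and Calm3, which encode calmodulin, the calcium sensor of the cytosol, went the other way. Calm2 was at 82.9, 175 and 123 FPKM in adults and at 775, 635 and 685 FPKM at E16.5 (log2 change -2.51, SE 0.31, adjusted p = 0.0063). Calm3 changed by -1.59 (SE 0.23, adjusted p = 0.0093). Of 18 alternatives, the call held in 7 for Atp2a2, 11 for Canx, 15 for Calm2 and 14 for Calm3.

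**Figure D5:**
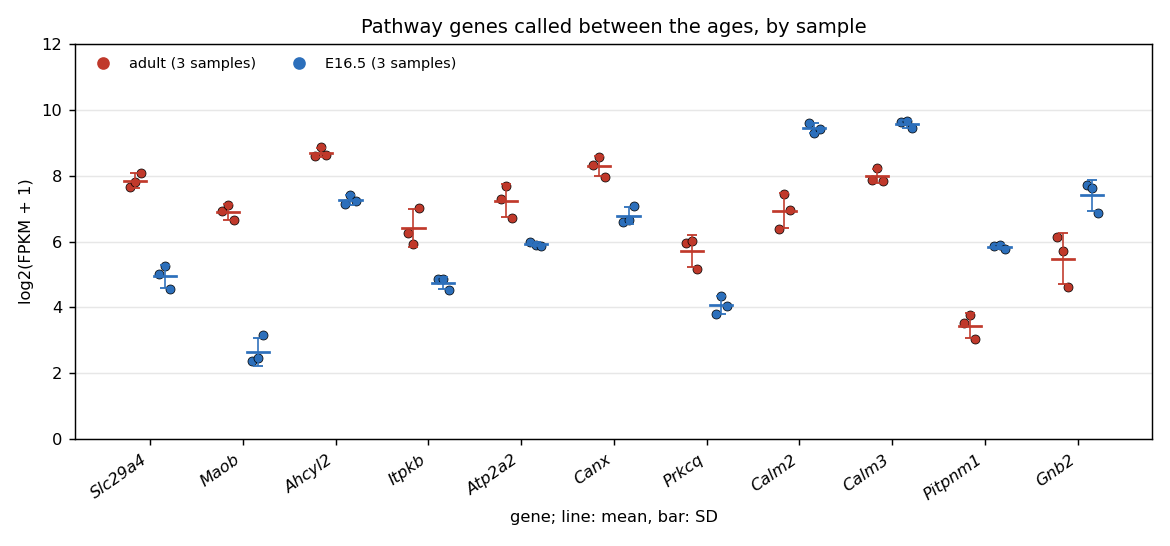
Levels as log2(FPKM + 1) in each adult (red) and E16.5 (blue) sample, with mean (line) and SD (bar), of 11 called pathway genes, each above 0 in all 6 samples. Adult samples lie above E16.5 samples for Slc29a4, Maob, Ahcyl2, Itpkb, Atp2a2, Canx and Prkcq and below them for Calm2, Calm3, Pitpnm1 and Gnb2.

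The diacylglycerol arm had 1 of 18 tested genes higher in adults and 5 higher at E16.5, where all genes tested gave 2.12% and 8.83%. Prkcq, protein kinase C theta, was at 61.8, 63.7 and 34.6 FPKM in adults and at 12.9, 19.5 and 15.6 FPKM at E16.5 (log2 change 1.64, SE 0.40, limma adjusted p = 0.0430). The 5 others were at or near 0 in the adult samples. Marcksl1, Rasgrp1 and Prkcb were listed at 0 in all of them and stood at 33.0 to 67.3, 8.14 to 16.3 and 4.42 to 6.74 FPKM at E16.5. Marcks, a substrate of protein kinase C, was at 0, 1.47 and 0 FPKM in adults and at 40.4, 25.0 and 22.9 FPKM at E16.5. Prkce, outside the naming rule, was at 0.548, 0.0745 and 0 FPKM in adults and at 5.19 to 7.81 FPKM at E16.5. Of 18 alternatives, the call held in 8 for Prkcq and Prkce, 11 for Prkcb, 13 for Marcks, 14 for Rasgrp1 and 16 for Marcksl1. Markers of neurons and neural progenitors ran in the same direction as the 5 genes higher at E16.5. They summed to between 4.51 and 18.7 FPKM in adults and between 45.9 and 164 FPKM at E16.5. Without the 2 most abundant, Sox2 and Map2, the other 12 summed to 2.25 to 4.33 FPKM in adults. At E16.5 these 12 summed to 98.8, 5.67 and 4.70 FPKM in replicates 1, 2 and 3. Mesenchyme markers also ran this way, with 21.6 to 33.5 FPKM in adults and 82.4 to 106 FPKM at E16.5. The part of either list was not tested.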

How the data were processed

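Adult ChP (3 samples) was compared with E16.5 ChP (3 samples) by TRAP-seq. Per the labels and the study's methods, the authors prepared libraries with SMARTer Pico and ribodepletion, aligned 50-base single-end reads to mm10 with STAR 2.4.0 and made the deposited FPKM with Cuffquant of Cufflinks. The annotation and strand setting given to Cuffquant are not given in the sources used here, and the authors' read counts were not analysed here. The members and gene lists were chosen with earlier results of these data known.

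The deposited FPKM were not rescaled. The test took in each gene whose mean FPKM exceeded 1 and was run on log2(FPKM + 1), a scale that understates the change of low genes, in limma 3.58.1 in R 4.3.3 (intensity trend, no covariates, two-sided, Benjamini-Hochberg adjusted p under 0.05 over all genes tested). The script was tested on simulated data. Shares and ratios were compared by exact two-sided permutation tests over samples, whose smallest p is 0.1. Depth was estimated from the spacing of low FPKM values in genes with 1 transcript, of which 47.8% to 57.6% fell within 0.1 of a whole number of reads. A step fixed beforehand would give 20% by chance, but each step was chosen to fit these values, so 20% is not its chance level. Of the 76 to 104 values used in a sample, 22 to 28 lay under 0.9 of a read, so the depths are rough. Estimates cover counting error only. Names were to be given to the members, to at most 4 called genes and the most abundant gene of each list, to the 5 genes most like Htr2c and to marker genes. Coordinates are from GENCODE vM21 (GRCm38) and promoters from RefSeq GRCm38.p6. There were 18 alternatives, among them pseudocounts, filters, scalings, array weights, a replicate block and the omission of each sample. The deviations of samples with the same number correlated at 0.00089, 0.0439 and 0.0150, so the numbers were not taken as pairs. Some genes that the rule or the lists take are not reported here.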

Additional observations from a re-analysis of the deposited data

How the results depend on the processing

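Counts of calls depended on scaling, on the test and on single E16.5 samples, and the cause was not tested. Of all genes, 246 were higher in adults and 1024 at E16.5. These counts were 119 and 3200 with the same FPKM sum, 473 and 464 with quantile normalization, 112 and 452 with the replicate block, 56 and 132 at an adjusted p under 0.01, and 27 to 357 and 16 to 1704 with 1 sample left out. Without the intensity trend 158 were higher in adults, and with median-ratio scaling 658 at E16.5. Of the members, 1 was higher in adults, against 2 (Htr2c and Itpr1) with median-ratio and quantile scaling, 0 with the same FPKM sum, without the trend, with the replicate block and at 0.01, and 0 to 1 with 1 sample left out. No alternative called a member higher at E16.5. Of the pathway lists, 7 genes were higher in adults and 14 at E16.5, against 2 and 28 with the same FPKM sum, 11 and 7 with quantile normalization, 3 and 8 with the replicate block, 2 and 3 at 0.01, and 2 to 11 and 0 to 16 with 1 sample left out. Leaving Mir6236 out of the sum gave 4 higher in adults and omitting the trend 3.

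Htr2c changed by 1.16 with median-ratio and 1.29 with quantile scaling, where it was called, and by -0.0028 with the same FPKM sum. Itpr1 lost its call with the same FPKM sum (0.65), and at an unchanged 1.47 without the trend (limma adjusted p = 0.0705), with the replicate block (adjusted p = 0.0501) and at 0.01. With 1 sample left out it changed by 1.34 to 1.60. Uncalled members crossed 0. Gnaq reached 0.33 with quantile normalization and ran from -1.29 to 0.0068 with 1 sample left out. Gna11 was at -0.043 and -0.049 with pseudocounts of 0.1 and 0.01, -0.76 with the same FPKM sum, -0.15 with Mir6236 left out of it, -0.28 with array weights and -0.55 to 0.99 with 1 sample left out. Itpr2 was at -0.56 and -1.58 with these pseudocounts, -0.39 with the same FPKM sum, -0.077 with Mir6236 left out of it and -0.39 to 0.59 with 1 sample left out. Plcb3 and Plcb4 kept their direction in all 18 alternatives, and Plcb1 and Itpr3 could be tested in few of them.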

Other observations

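The introns of Htr2c hold microRNA genes, of which 5 were in the table. Mir764, Mir1264, Mir1298 and Mir448 were listed at 0 in all 6 samples, and Mir1912 at 489 FPKM in adult replicate 1 and at 0 elsewhere. An FPKM of so short a gene rests on few reads.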
